A study of Rattus norvegicus with 8 samples.

Results

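Voltage-gated and chloride channel genes were compared between the orbital and the global layer of the eye-moving (extraocular) muscles of adult rats. The members were the genes whose symbol begins with Kcn (potassium channels), Scn and a digit (sodium channels), Cacn (calcium channels), Clcn (chloride channels and exchangers) or Clic (chloride intracellular channel proteins), without Cacna1s, Cacnb1 and Cacng1. This gave 117 of the 10411 genes named on the array, on 167 of the 15866 probe sets that are no controls, and each gene was read from its probe set with the highest mean intensity. Tissue of the orbital layer, which faces the bony orbit, and of the global layer, which lies next to the eyeball, was cut out with a laser. There were 4 captures of the orbital and 4 of the global layer, with no treatment named for either, each on 1 Affymetrix rat RAE230A array after amplification of the RNA. Orbital captures 1 and 2 and global captures 1 and 2 carry the prefix R2 in their titles, and the other 4 captures carry R3. The titles of orbital captures 3 and 4 carry the same capture number, so they may be repeat runs of 1 capture, which would leave 3 orbital samples where n = 4 is given. The median absolute log2 difference over the probe sets tested was 0.256 between these captures, against 0.245 to 0.257 between the other pairs of orbital captures, so they were no closer than the others. The labels do not say what the prefix means, and they give neither strain nor sex, nor the animal of each capture. The p-values rest on the spread among these captures, and they come out too small where an animal gave more than 1 capture of the same layer. Where an animal gave captures of both layers, that pairing was not used. As the animals are not given, the direction of the error is not known.

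Ion channels set the electrical behaviour of a muscle fibre. Sodium channels carry the action potential, potassium and chloride channels bring the membrane back to rest and hold it there, and the voltage-gated calcium channel of the transverse tubule couples the action potential to release of calcium from the sarcoplasmic reticulum. A channel consists of a pore protein and, in many families, of auxiliary subunits that set its trafficking and gating. Extraocular muscle is known for fibres that contract fast, resist fatigue and, in part, carry many endplates.

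Median intensity was between 58.8 and 66.3 over the 8 arrays. The background of an array was taken as its highest Bacillus subtilis control probe set, which was between 17.7 and 24.1 in the orbital captures. In the global captures it was between 17.7 and 22 in captures 1 to 3 and 41.5 in capture 4. For Gapdh, the signal at the 3′ end divided by that at the 5′ end, a measure of RNA shortening, was 6.33, 5.81, 12.9 and 8.64 in orbital captures 1 to 4, against 5.35, 5.64, 5.70 and 6.47 in global captures 1 to 4. The mean of the bacterial and phage control probe sets that are added to every array was between 2122 and 2652 in the 4 captures with prefix R2 and between 3074 and 4129 in the 4 with prefix R3. In dissected tissue, fewer cells of a type and less RNA per cell cannot be told apart.

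A minority of the channel genes gave a signal above background in every capture. Of the 117 genes, 39 were above background in all 8 captures, 63 in some and 15 in none. In the orbital captures 52 genes were above background in all 4, and in the global captures 44 were, where capture 4 has the highest background. With 1 background level of 17.8 for all arrays, the 95th percentile of the controls, the order turned round, with 56 genes in all 4 orbital captures and 58 in all 4 global captures. Of the 30 voltage-gated potassium pores, 10 were above background in all 8 captures, and so were 7 of 15 inward rectifiers (Kcnj), 1 of 11 two-pore channels (Kcnk), 1 of 5 channels gated by calcium or sodium (Kcnma1) and 2 of 12 auxiliary potassium subunits. Among the sodium channels these were 3 of 9 pores and 2 of 3 auxiliary subunits, among the calcium channels 2 of 9 pores and 4 of 12 auxiliary subunits. They were 4 of 7 Clcn and 3 of 4 Clic genes. The 15 genes whose brightest probe set was above background in no capture included the calcium channel pores Cacna1d and Cacna1f, the auxiliary subunits Cacnb4, Cacng8, Kcne1, Kcnip1 and Scn2b, and the sodium channel pores Scn8a and Scn9a. The others were Clcn2, Kcnb2, Kcnh8, Kcnj1, Kcnk4 and Kcnk12. Another probe set of Cacna1d was above background in 1 orbital capture and a further one in 2 global captures, so 14 genes had no probe set above it in any capture. A probe set at background has only an upper bound here, and intensities of different probe sets do not rank the amounts of their transcripts.

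**Figure D1:**
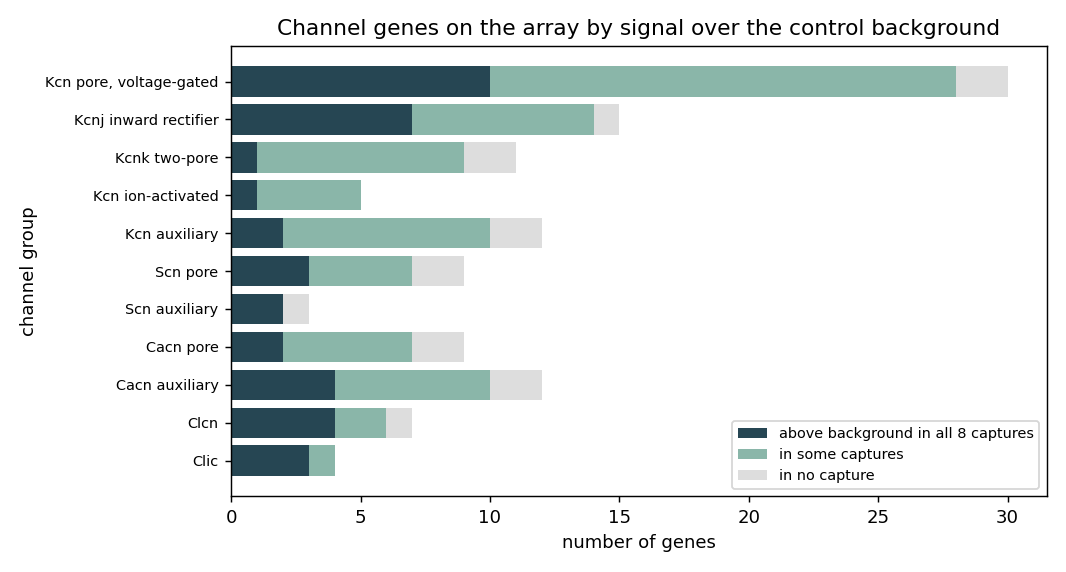
Number of channel genes (horizontal axis) in each channel group (vertical axis), split by whether the brightest probe set lay above the array's control background in all 8 captures, in some or in none. Of the 117 genes, 39 fall in the first class, 63 in the next and 15 in the last, and the voltage-gated potassium pores are the group with most genes (30).

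Of the 117 genes, 44 had a mean level at or above the 40th percentile of all probe sets, an intensity of 39.4, and were tested, and 73 were not. Between the layers, 3 of the 44 differed, Kcnj12, Cacna2d1 and Clcn3, and all 3 were lower in the orbital layer (limma, Benjamini-Hochberg adjustment over 9520 probe sets, adjusted p under 0.05). Kcnj12 was under the filter level in all 4 orbital captures and was tested only through its global values, so it could be called in 1 direction alone. The 3 calls are 6.82% of the genes tested, where 7.41% of all probe sets tested passed, 3.91% higher and 3.5% lower in the orbital layer. The share is near that of the whole array. None (0) passed as higher in the orbital layer. At an unadjusted p under 0.05 there were 11 genes, 5 higher and 6 lower in the orbital layer, and 21.6% of all probe sets tested lay under that value. The 4 orbital and 4 global captures did not overlap for 7 genes (15.9% of 44), 2 higher and 5 lower in the orbital layer. Of all probe sets tested, 14.1% did not overlap. Among the 5 lower genes, Kcnj12 and Scn1a were under the filter level in all 4 orbital captures, so the filter fixed their direction. None (0) of the tested genes was under it in all 4 global captures. The split of 2 against 5 thus rests partly on the filter. Of the 73 genes not tested, 3 did not overlap, Kcnv1 higher and Kcnip1 and Scn2b lower in the orbital layer. Kcnip1 and Scn2b were at background in every capture. The share without overlap over all probe sets not tested was not taken, so this count has nothing to stand beside. The log2 difference, orbital minus global, had a median of -0.11 over the 44 genes, against 0.02 over all probe sets tested, and 17 differences were above and 27 below 0. The span of the 44 was -1.29 to 0.71.

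**Figure D2:**
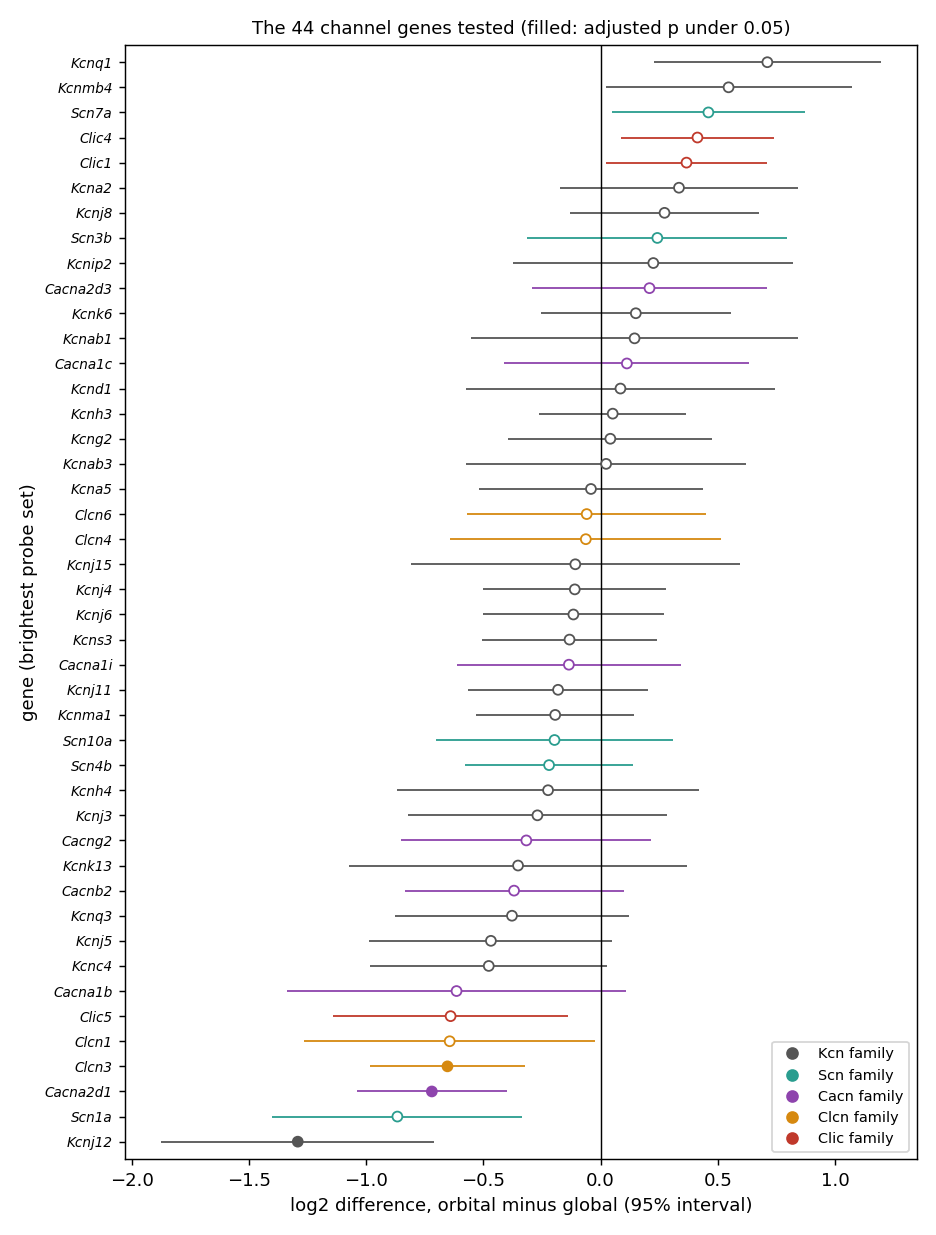
Log2 difference, orbital minus global (horizontal axis), of each of the 44 tested channel genes (vertical axis), with the 95% interval of the limma fit. Filled points mark Kcnj12, Cacna2d1 and Clcn3, which passed, and open points span -0.87 to 0.71.

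**Figure D3:**
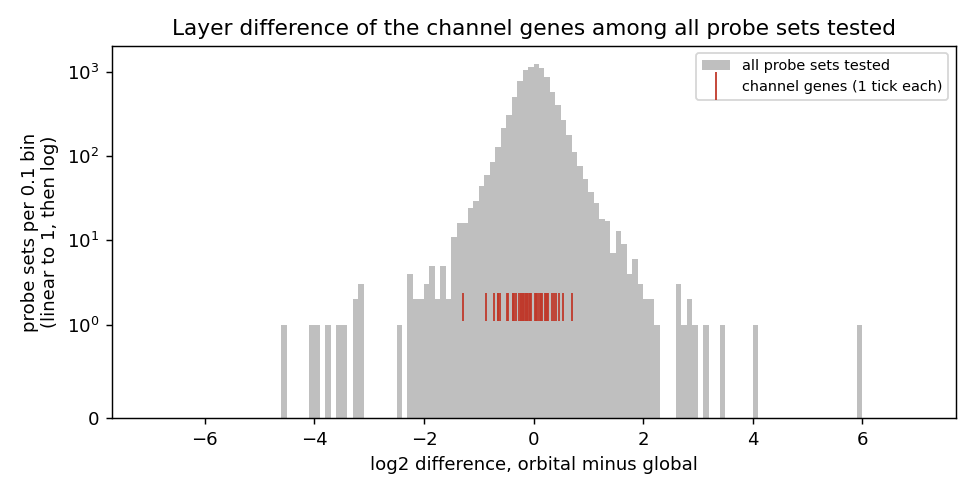
Number of probe sets per bin of 0.1 (vertical axis, linear to 1 and logarithmic above) against the log2 difference, orbital minus global (horizontal axis), for all 9520 probe sets tested. Ticks mark the 44 channel genes, which lie between -1.29 and 0.71, inside the range of the other probe sets.

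Cacna2d1 encodes the alpha2delta subunit that accompanies the voltage-gated calcium channel of skeletal muscle and supports its traffic to the membrane. It had an intensity of 553.6, 409.9, 446.3 and 333.2 in orbital captures 1 to 4, against 687.7, 684.9, 712.3 and 742.1 in global captures 1 to 4. All 4 orbital captures lay below all 4 global captures, and the global values were closer together. The means were 436 ± 91.6 in orbital captures, against 707 ± 26.6 in global captures (SD, n = 4 each), a log2 difference of -0.72 ± 0.15 (SE, limma adjusted p = 0.00928). The difference was -0.53 among captures with prefix R2 and -0.91 among those with R3. With orbital captures 1 and 2 alone, without the 2 orbital captures of highest Gapdh ratio, it was -0.57 and did not pass (limma adjusted p = 0.0950). That fit sets orbital captures of prefix R2 alone against global captures of both prefixes. Layer and prefix are thus partly mixed in it, here and for the genes below.

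Clcn3 encodes a chloride and proton exchanger of endosomes. Its intensity was 216.5, 280.8, 206.0 and 195.4 in orbital captures 1 to 4, against 429.4, 318.3, 346.5 and 317.8 in global captures 1 to 4. The layers did not overlap, with orbital capture 2 the nearest to the global values. The means were 225 ± 38.4 in orbital captures, against 353 ± 52.7 in global captures (SD, n = 4 each), a log2 difference of -0.65 ± 0.15 (SE, limma adjusted p = 0.0203). Clcn3 no longer passed when orbital capture 1, 3 or 4 was left out, or global capture 1 (adjusted p 0.0521 to 0.0680), with orbital captures 3 and 4 averaged as 1 sample (0.0514), and with orbital captures 1 and 2 alone (-0.50, 0.212). A second tested probe set of Clcn3 differed by -0.41 without passing (adjusted p = 0.466), and the remaining one was too dim to be tested, with means of 43.7 in orbital captures, against 37.2 in global captures.

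The sequence before the start of a gene was looked up for the genes that passed. They were all lower in the orbital layer, though the filter left Kcnj12 only that direction. RefSeq's table of rat promoters (GRCr8) matched 85 of the 117 genes by gene ID, Cacna2d1 and Clcn3 among them. Kcnj12 had no sequence there. The 250 bases before the annotated start are shown 5′ to 3′ on the gene's strand, in lower case, with capitals for matches to the E-box CANNTG, the motif of myogenic factors and many other proteins. The stretch of Cacna2d1 is chr4:20330148-20330397 on the minus strand, and that of Clcn3 is chr16:34137754-34138003 on the plus strand.
Cacna2d1: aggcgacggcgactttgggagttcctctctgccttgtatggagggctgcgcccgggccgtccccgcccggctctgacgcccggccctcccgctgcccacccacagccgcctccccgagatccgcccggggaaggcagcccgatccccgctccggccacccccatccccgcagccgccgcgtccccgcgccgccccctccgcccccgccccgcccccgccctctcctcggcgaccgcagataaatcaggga
Clcn3: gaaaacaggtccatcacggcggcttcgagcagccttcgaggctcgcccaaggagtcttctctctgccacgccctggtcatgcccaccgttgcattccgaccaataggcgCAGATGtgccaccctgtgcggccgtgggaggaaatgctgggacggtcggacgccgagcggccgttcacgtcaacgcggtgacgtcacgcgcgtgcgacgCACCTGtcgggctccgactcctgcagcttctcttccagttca
The stretch of Clcn3 holds 2 matches, whose first bases lie at -141 and -42 from the start, and that of Cacna2d1 holds 0. Its G and C content was 77.2% in Cacna2d1 and 64.4% in Clcn3, against a median of 52% over all promoters of the table. A motif like that of MEF2 factors, CTANNNNTAG, was in neither (0 matches each). Both motifs read the same on either strand, and no matches overlapped. CANNTG was present in 62.5% of the 32 tested channel genes with a sequence and in 65.2% of all 27457 promoters of the same length, and CTANNNNTAG in 3.1% and 3.4%. A match is only a run of letters, and no binding was measured here.

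Kcnj12 encodes the inward rectifier Kir2.2, which holds the resting potential of excitable cells. Its intensity was 20.7, 31.6, 22.5 and 37.1 in orbital captures 1 to 4, against 59.6, 55.6, 82.1 and 78.7 in global captures 1 to 4. All 4 global captures were above all 4 orbital captures, and orbital capture 1 lay under its background of 23.4. The means were 28.0 ± 7.73 in orbital captures, against 69.0 ± 13.3 in global captures (SD, n = 4 each), a log2 difference of -1.29 ± 0.27 (SE, limma adjusted p = 0.0101). The size depends on the pseudocount, as the values are dim: it was -0.53 with 64 added in place of 1, with the call kept (adjusted p = 0.00821). It was -1.38 with orbital captures 1 and 2 alone (adjusted p = 0.0395). Without global capture 3 its mean was under the filter, so it was not tested there. Of the other 14 inward rectifiers none (0) passed in either direction, and 7 of them were tested.

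Kcnj11, the pore of the ATP-sensitive potassium channel of muscle, had 559.8, 702.0, 905.5 and 660.3 in orbital captures 1 to 4, against 845.8, 648.6, 1037.8 and 682.7 in global captures 1 to 4. The layers overlapped, and the log2 difference was -0.18 with a 95% interval of -0.56 to 0.20. Its partner Abcc9, a sulfonylurea receptor of muscle and heart, differed by -0.06 (adjusted p = 0.850). Kcnj8, the pore of the vascular form of that channel, had 79.8 to 92.7 in the orbital captures, against 63.4 to 67.9 in global captures 1 to 3 and 96.0 in global capture 4 (log2 difference 0.27, adjusted p = 0.438). Kcnj2, whose product Kir2.1 is a close relative of Kir2.2, was too dim to be tested: 6.4, 23.7, 37.0 and 40.9 in the orbital captures, against 8.4, 52.2, 24.5 and 61.1 in the global captures.

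The potassium channels that open on depolarisation went in both directions and none (0) passed. Kcnq1, the pore of a slow potassium current known from heart, had 94.0, 73.8, 116.9 and 65.7 in orbital captures 1 to 4, against 57.0, 56.1, 54.4 and 41.4 in global captures 1 to 4. The layers did not overlap, and global capture 4 lay just under its background of 41.5. The means were 87.6 ± 22.9 in orbital captures, against 52.2 ± 7.30 in global captures (SD, n = 4 each). The log2 difference of 0.71 ± 0.22 did not pass (SE, limma adjusted p = 0.0763). Kcnc4, the pore Kv3.4 known from fast skeletal muscle, had 90.4, 147.5, 225.8 and 180.8 in the orbital captures, against 195.2, 216.8, 255.2 and 190.7 in the global captures. Orbital capture 3 lay within the global range, and the log2 difference was -0.48 (adjusted p = 0.262). It was -0.83 among captures with prefix R2 and -0.13 among those with R3. Kcna5, a pore of heart and smooth muscle, differed by -0.04 (95% interval -0.52 to 0.44), and Kcnh3, known from brain, by 0.05 (-0.26 to 0.36).

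Some potassium channel genes, most of them too dim to be tested, are described from their values, with no list or test behind the choice. Kcna1, a channel of myelinated motor axons, had 10.5, 93.0, 47.6 and 69.7 in orbital captures 1 to 4, against 6.7, 7.6, 2.6 and 39.9 in global captures 1 to 4. It was above background in 3 orbital captures and in 0 global captures, or in 3 and 1 with the level of 17.8 for all arrays, with orbital capture 1 inside the range of the global captures. It failed the filter on dim probe sets, and without that filter it did not pass (log2 difference 2.14, limma adjusted p = 0.184). Kcna2, its partner in the axon, had 60 to 79.5 in the orbital captures, against 38.2 to 77.7 in the global captures (0.33, adjusted p = 0.453). Kcna3, a channel of lymphocytes and neurons, had 24.4 to 46.3 in the orbital captures, above background in all 4, against 4.6 to 36.5 in the global captures, above background in 0, or in 1 with the level of 17.8. Kcnip3, a calcium-binding protein that joins Kv4 channels, was above background in 4 orbital captures and 1 global capture, or 4 and 2 with that level. Kcnv1, a silent pore subunit of brain, had 32.7 to 40.9 in the orbital captures, against 6.0 to 31.6 in the global captures, and without the filter it did not pass (adjusted p = 0.356). Kcna1, Kcna2, Kcna3, Kcnip3 and Kcnv1 were chosen after their values were seen, as were Kcnmb1, Kcnj15, Kcnv2, Cacna1b and the genes at background in every capture. The first of these, Kcna1 to Kcnv1, all had the higher mean in the orbital layer. Other dim potassium channel genes, picked in the same way, went the other way. Without the filter Kcnip1 differed by -1.66, Kcnk5 by -1.27, Kcnj9 by -1.13 and Kcnd3 by -0.96, none passing. Kcnip1 did not overlap, with 0.3 to 1.1 in the orbital and 1.3 to 12.4 in the global captures, all at background. Of 11 nerve and Schwann cell markers 9 were on the array and 5 were tested, of which 2 rose in the orbital layer (Nefm and Cnp) and 0 fell. Over all probe sets tested, 3.91% passed as higher in the orbital layer. The summed intensity of the 9 markers was 2790 to 5136 in the orbital captures and 1515 to 4726 in the global captures. The part of nerve in the channel values was not tested.

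Kcnma1, the large-conductance potassium channel opened by calcium and voltage, had 1206.6, 1348.7, 1403.3 and 1783.5 in orbital captures 1 to 4, against 1513.7, 1316.2, 1825.7 and 1915.3 in global captures 1 to 4. The layers overlapped, with a log2 difference of -0.19 (95% interval -0.53 to 0.14). A second tested probe set of Kcnma1, with means of 71.5 in orbital captures, against 45.0 in global captures, did not overlap between layers and differed by 0.65 without passing (adjusted p = 0.0906), so the probe sets of this gene disagree in sign. Kcnmb4, an auxiliary subunit of that channel known from brain, had 59.2, 67.1, 84.9 and 56.3 in the orbital captures, against 40.8, 54.7, 55.8 and 32.6 in the global captures. These layers did not overlap, with orbital capture 4 just above global capture 3, and global capture 4 lay under its background of 41.5. The log2 difference of 0.55 ± 0.24 did not pass (SE, limma adjusted p = 0.212). Kcnmb1, the smooth muscle form of the auxiliary subunit, was above background in 2 orbital and 2 global captures. Kcnn3, a small-conductance channel known from denervated muscle, was above background in 3 orbital captures and 1 global capture, or 3 and 3 with the level of 17.8, with 17.5 to 39.7 in the orbital and 6.2 to 30.3 in the global captures. Kcne3, an auxiliary subunit of skeletal muscle potassium channels, had 7.0 to 47.8 in the orbital and 13.5 to 48.8 in the global captures, and Kcnk6, a two-pore channel, differed by 0.15 (adjusted p = 0.703).

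None (0) of the 5 sodium channel genes tested passed, and the sodium pore of adult skeletal muscle was too dim to be tested. Scn4a, that pore, had 5.3, 5.4, 22.5 and 13.9 in orbital captures 1 to 4, against 9.0, 12, 5.5 and 40 in global captures 1 to 4, and was above background in 1 capture, orbital capture 3, or also in global capture 4 with the level of 17.8. So nothing can be said of Scn4a in either layer from this probe set. Scn4b, an auxiliary subunit of sodium channels, had 4666.3, 4785.9, 5546.0 and 6763.0 in orbital captures 1 to 4, against 5601.0, 5268.7, 7864.0 and 6635.8 in global captures 1 to 4. The layers overlapped, with a log2 difference of -0.22 and a 95% interval of -0.58 to 0.14. Scn1a, a sodium pore of neurons, had 34.7, 35.4, 36.1 and 27.3 in the orbital captures, against 62.7, 75.2, 43.8 and 68.3 in the global captures. The layers did not overlap, with means of 33.4 ± 4.09 in orbital captures, against 62.5 ± 13.5 in global captures (SD, n = 4 each), and the log2 difference of -0.87 ± 0.25 did not pass (SE, limma adjusted p = 0.0508). Scn1a, too, was under the filter level in all 4 orbital captures and was tested only through its global values. It passed in 7 of 20 alternatives (adjusted p 0.0223 to 0.442 over all of them), of which 1 was without global capture 3 (-1.02, 0.0340). Scn7a, a sodium-sensing channel protein known from Schwann cells and glia, had 991.8, 1406.7, 1623.1 and 1131.9 in the orbital captures, against 1057.1, 886.6, 663.9 and 1150.1 in the global captures. It overlapped and differed by 0.46 (adjusted p = 0.180). Scn10a, a pore of sensory neurons, differed by -0.20, and the auxiliary subunit Scn3b by 0.24, neither passing. The auxiliary subunit Scn2b was at background in all 8 captures, with 1.2 to 1.9 in the orbital and 2.0 to 10.9 in the global captures.

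**Figure D4:**
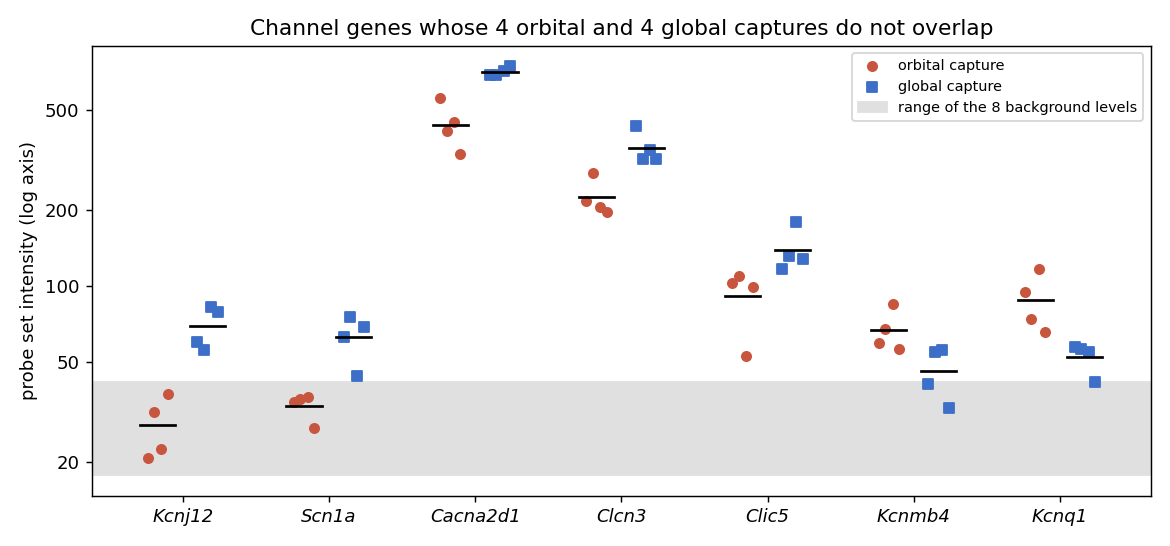
Probe set intensity (vertical axis, logarithmic) in each of the 4 orbital captures (circles, left) and 4 global captures (squares, right) for the 7 tested channel genes whose layers do not overlap, with bars at the means and a grey band for the range of the background levels of the 8 arrays. Kcnj12 and Scn1a reach 37.1 and 36.1 at most in the orbital captures, inside the band. Global values of Kcnmb4 (32.6 and 40.8) and Kcnq1 (41.4) also lie inside it. The band reaches 41.5 through global capture 4 alone, and the backgrounds of the orbital captures were 17.7 to 24.1. Against the background of its own array, Scn1a was above it in 4 orbital captures and Kcnj12 in 3. Kcnmb4 and Kcnq1 were each above it in 3 global captures. Cacna2d1 and Clcn3 lie far above the band.

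Among calcium channels 1 of 7 tested genes passed, Cacna2d1, and the other 6 did not. The auxiliary subunit Cacnb2, known from heart, had 62.8 to 85.5 in the orbital captures, against 76.8 to 137.2 in the global captures (log2 difference -0.37, adjusted p = 0.354). A second tested probe set of Cacnb2 differed by 0.14 (adjusted p = 0.797). Cacna2d3 differed by 0.21 and Cacng2, known from brain as a partner of glutamate receptors, by -0.32, without passing. The pores tested were Cacna1b, Cacna1c and Cacna1i. Cacna1c, the L-type pore of heart and smooth muscle, had 37.5 to 54.3 in the orbital captures, against 34.2 to 50.5 in the global captures (0.11, 95% interval -0.41 to 0.63). Cacna1i, a low-voltage-activated pore, differed by -0.14 and Cacna1b, a pore of nerve terminals, by -0.61 (adjusted p = 0.316). Cacna1a, the pore that triggers transmitter release at the motor endplate, was not tested, with 6.3 to 56.9 in the orbital captures, against 11.0 to 36.8 in the global captures. Cacnb3 had 17.9 to 30.9 in the orbital and 26.3 to 33.7 in the global captures, and Cacng6, a relative of the muscle gamma subunit, had 9.0 to 24.7 in the orbital and 3.9 to 11.3 in the global captures. Cacna1h had 4.2 to 32.9 in the orbital and 20.3 to 38.3 in the global captures, and the brightest probe set of Cacna1d, at background in all 8, had 4.9 to 15.4 in the orbital and 8.4 to 27.4 in the global captures. A dimmer probe set of Cacna1d had 2.0 to 5.2 in the orbital and 9.7 to 27.5 in the global captures, without overlap, and was not tested. It was above background in 2 global captures only. Dimmer probe sets of other genes went the other way without overlap, at background in all 8 captures. That of Cacng2 had 5.6 to 16.4 in the orbital and 1.9 to 4.2 in the global captures. For the potassium channel subunit Kcne2 these were 7.2 to 14.2 and 1.2 to 2.8.

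Chloride channel genes tested were below 0 in difference throughout, but only Clcn3 of 4 passed. Clcn1, the main chloride channel of the skeletal muscle membrane, had 28.2, 25.8, 57.1 and 27.3 in orbital captures 1 to 4, against 46.6, 54.9, 49.4 and 56.1 in global captures 1 to 4. In 3 orbital captures Clcn1 was below all global captures, while orbital capture 3 was above them all. The log2 difference was -0.64 ± 0.29 (SE, limma adjusted p = 0.215), and without orbital capture 3 it was -0.91 (adjusted p = 0.0715), still without passing. The exchangers Clcn4 and Clcn6 differed by -0.06 each, with 95% intervals of -0.64 to 0.52 and -0.57 to 0.45. Clcn5 had 15.6 to 26.6 in the orbital and 18.3 to 37.1 in the global captures, and Clcn7, of lysosomes, had 3.3 to 16.2 in the orbital and 7.1 to 23.2 in the global captures. Both were under the filter, and Clcn7 was above background in 1 capture, global capture 3.

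The Clic genes encode proteins that exist in soluble and membrane forms and are named for chloride channels. Clic5, which associates with the actin skeleton, had 102.3, 108.8, 52.7 and 98.8 in orbital captures 1 to 4, against 116.9, 130.9, 178.4 and 127.3 in global captures 1 to 4. The layers did not overlap, with orbital capture 3 the lowest and global capture 3 the highest. Its means were 90.7 ± 25.6 in orbital captures, against 138 ± 27.3 in global captures (SD, n = 4 each), and the log2 difference of -0.64 ± 0.23 did not pass (SE, limma adjusted p = 0.122). Clic4 had 366.6, 424.3, 473.9 and 525.7 in the orbital captures, against 338.3, 369.5, 266.7 and 368.7 in the global captures, with orbital capture 1 inside the global range. Its log2 difference was 0.41 (adjusted p = 0.127), and a second tested probe set of Clic4 differed by -0.10 (adjusted p = 0.805). Clic1 had 143.4 to 174.8 in the orbital captures, against 101.8 to 147.9 in the global captures (0.37, adjusted p = 0.202). Clic3 had 4.0 to 19.7 in the orbital and 1.4 to 9.2 in the global captures and was not tested.

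**Figure D5:**
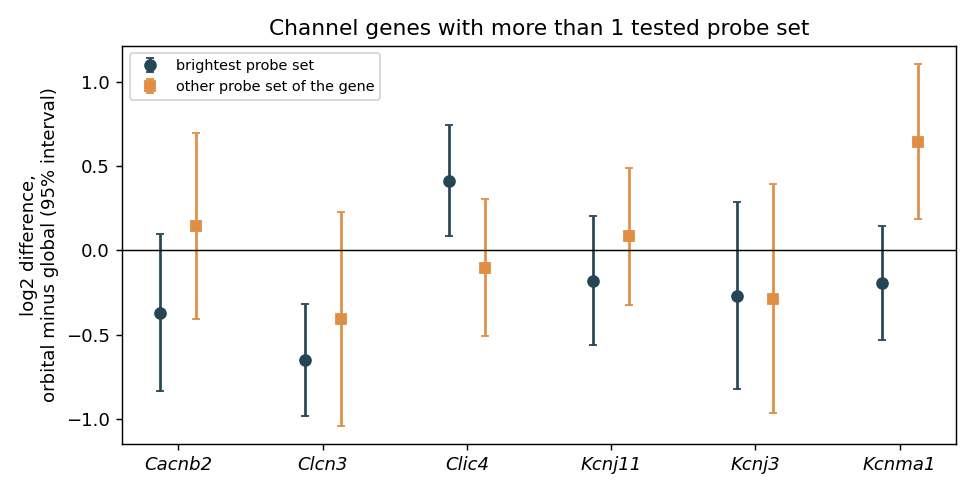
Log2 difference, orbital minus global (vertical axis, with the 95% interval of the limma fit), for the 6 channel genes with more than 1 tested probe set (horizontal axis). The brightest probe set of each gene (circle) is left of the other (square), and the signs differ for Cacnb2, Clic4, Kcnj11 and Kcnma1, of which no probe set passed.

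Genes whose products bind, anchor or regulate these channels were counted from a list of 46, of which 32 were on the array and 22 were tested. Of these 4 fell in the orbital layer (Ryr1, Jph1, Jph2 and Prkca), 0 rose and 18 did not pass, with a median log2 difference of -0.27. Jph1, a junctophilin that holds the transverse tubule against the sarcoplasmic reticulum, had 225.7, 196.3, 220.6 and 254.8 in orbital captures 1 to 4, against 481.4, 345.7, 496.0 and 366.9 in global captures 1 to 4 (log2 difference -0.90, adjusted p = 0.00290). Ryr1, the calcium release channel, differed by -0.77, Jph2 by -0.86, and the kinase Prkca by -0.77. Of 47 other ion channel genes, 41 were on the array and 28 were tested, of which 2 fell, 0 rose and 26 did not pass, with a median of -0.04. Vdac1, the anion channel of the outer mitochondrial membrane, had 667.5, 731.6, 474.9 and 953.0 in the orbital captures, against 1416.4, 1478.5, 2103.7 and 1894.7 in the global captures (-1.31, adjusted p = 0.00138). Ano5, an anoctamin of muscle, differed by -1.18 (adjusted p = 0.00420). The share of all probe sets that fell was 3.5%. Both lists were drawn up with earlier results of these data known, so their counts beside that share are no test of an excess.

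Some markers of fibre types and of other cells differed between the layers, and most of those tested did not pass. Of 7 markers of fast fibres, 4 fell in the orbital layer (Actn3, Mybpc2, Pvalb and Atp2a1) and 0 rose, with a summed intensity of 21269 to 32431 in the orbital captures and 42857 to 75700 in the global captures. Of 7 markers of muscle fibres in general, 1 fell and 0 rose. Their sums overlapped, with 35229 to 51103 in the orbital and 41661 to 58193 in the global captures. Des is on this list and on that of smooth muscle. Of 7 smooth muscle and pericyte markers tested, 1 fell and 0 rose, with sums of 918 to 1211 in the orbital and 1232 to 1412 in the global captures. Of 6 endothelial markers 1 rose and 0 fell, and of 6 fibroblast markers 0 rose and 0 fell. Of the adipocyte, blood and brain neuron markers tested, 0 passed. Of 6 rod photoreceptor markers 4 were on the array, with sums of 263.6 to 1140 in the orbital and 18.0 to 551 in the global captures, and 0 of the 2 tested passed. Cacna1f, a calcium pore of photoreceptors, was at background in all 8 captures, and Kcnv2, a potassium channel subunit of photoreceptors, was above it in 2 orbital captures and 0 global captures. Sag, the rod arrestin, had 137.9, 802.3, 166.0 and 466.6 in the orbital captures, against 345.1, 2.2, 13.2 and 389.3 in the global captures, so it varied within each layer. Of all these markers 1, the adipocyte gene Lep, was at background in all 8 captures. Over all probe sets tested, 3.91% passed as higher in the orbital layer and 3.5% as lower. The marker lists, too, were drawn up with earlier results of these data known, so their counts beside these shares are no test of an excess. The part of other cells and of fibre types in the channel values was not tested.

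The direction of the layer difference was the same among the captures with prefix R2 and among those with R3 for 30 of the 44 genes. A test of the difference between the prefixes gave 0 channel genes at an adjusted p under 0.05 (interaction term, limma) and 1 at an unadjusted p under 0.05. That gene, Kcnj15, an inward rectifier, differed by -0.77 among captures with prefix R2 and by 0.55 among those with R3.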

How the data were processed

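The authors deposited linear intensities for each probe set of each array, and the software behind them is not given in the sources used here. Per the labels, the RiboAmp OA kit (T7 amplification) was used before Affymetrix rat RAE230A arrays. From the values, the arrays had been scaled: their 2% trimmed means differed by at most 0.00389%, so no normalization was added. Captures were grouped by layer from the labels and numbered in accession order. After removal of 57 controls from 15923 probe sets, 9520 at or above the 40th percentile of mean log2 value were tested on log2(intensity + 1) with limma 3.58.1 (lmFit and eBayes with trend, R 4.3.3) and Benjamini-Hochberg adjustment. Fold changes of dim probe sets depend on the pseudocount.

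Symbols came from the platform annotation, which can be old, and 12783 probe sets had 1 symbol, 312 several and 2771 none. A control probe set was used for background if its median was under the 75th percentile of all probe sets (27 kept). Members, lists and the naming rule were chosen with earlier results of these data known. Genes were named that passed, that did not overlap between layers, that were among the 5 with highest intensity of their family, or that are known from muscle, 41 in all. On simulated data for 4 against 4 captures, the test over 9520 probe sets found 68% of those changed by 1 on the log2 scale and 94% of those changed by 2. There were 200 changed probe sets and 10 false calls. These shares are over all probe sets tested and were not taken for the channel genes apart. Alternatives were other normalizations, pseudocounts, filters and variance models, the title prefix as a block or alone, orbital captures 3 and 4 averaged, and each capture left out. Fits with orbital captures 1 and 2 alone, and a background without global capture 4, were added after seeing the data.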

Additional observations from a re-analysis of the deposited data

Results flagged for a closer look

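A capture stood apart from the other 3 of its layer, by the ratio of its gap to the range of the layer, in 6 of the 82 sets of 4 values looked at, where chance gives about 5%. Cacna1h had 4.2 in orbital capture 1, against 30 to 32.9 in the other orbital captures. Clcn1 had 57.1 in orbital capture 3, against 25.8 to 28.2 in the others. Scn1a had 27.3 in orbital capture 4, against 34.7 to 36.1. In global capture 4, Kcnj8 had 96.0, against 63.4 to 67.9, and Kcnq1 had 41.4, against 54.4 to 57. Clcn4 had 38.4 in global capture 1, against 54 to 57 in the other global captures.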

How the results depend on the processing

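In 0 of the settings did a channel gene pass as higher in the orbital layer. With the prefix R2 alone 106 probe sets and 0 channel genes passed (limma, 4 of 42 channel genes at an unadjusted p under 0.05), and with R3 alone 170 and 0 (7 of 46). With orbital captures 1 and 2 alone, a setting added after seeing the data, 363 probe sets and 1 channel gene passed. These settings hold fewer captures, and the last sets orbital captures of prefix R2 alone against global captures of both prefixes. Leaving out 1 capture at a time gave 461 to 725 probe sets, the lowest without global capture 3, and 2 to 3 channel genes, all lower in the orbital layer. The title prefix as a replicate block gave 745 probe sets and 3 channel genes. With orbital captures 3 and 4 averaged, as their titles carry the same number, 610 probe sets and 2 channel genes passed, without Clcn3. The other settings gave 506 to 753 probe sets and 2 to 4 channel genes. Differences near 0 that never passed changed sign, and the cause was not tested. With R3 alone Cacna2d3 was at -0.0072, Kcna5 at 0.22 and Scn3b at -0.010. With R2 alone Clcn4 was at 0.16, Clcn6 at 0.39, Kcnh3 at -0.036 and Scn10a at 0.020, and Clcn6 was at 0.028 with orbital captures 3 and 4 averaged. Without 1 capture, Cacna2d3 ranged from -0.0074 to 0.37, Clcn4 from -0.21 to 0.15, Clcn6 from -0.20 to 0.084, Kcna5 from -0.23 to 0.067 and Kcnh3 from -0.019 to 0.11. Dim signal is 1 limit: 73 of the 117 genes were not tested, and 39 were above background in all 8 captures, or 50 with the pooled 95th percentile of the controls as background and 45 without global capture 4.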
